A study of Mus musculus with 16 samples.

Results

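Control cells of an early reprogramming experiment were compared between day 3 and day 6 of induction of Oct4, Sox2, Klf4 and c-Myc (OSKM). The comparison rests on 4 of the 16 bulk RNA sequencing libraries of the series, 2 at each day, which were chosen by their labels as cells that received non-targeting (nt) siRNA. Of the 18990 genes with deposited values, 14028 were tested. These had a mean of 0 or more on the log2 scale of CPM, the read count scaled to library size, over all 16 libraries. A gene with almost no reads at day 3 passes this filter only through its day 6 level, so lists that hold such genes lean towards risers. Both groups were wild-type mouse embryonic fibroblasts (MEFs) of the BL6 background at the second passage. They carried the doxycycline-inducible tet-STEMCCA lentivirus, which encodes the factors as 1 cassette, and a lentivirus for the reverse tetracycline transactivator, each at a multiplicity of infection of 1. All cells had been transfected with siRNA at 40 nM. Induction was in 2 µg/mL doxycycline with 3 µM chiron (a GSK3 inhibitor that stabilises β-catenin), 0.25 µM Alk5i (an inhibitor of the TGF-β type I receptor), 50 µg/mL ascorbic acid and LIF. The remaining 12 libraries are siWdr5, siBrca1 and siBard1 cells at the same days, with 2 libraries per group, and they entered the fit to share 1 estimate of the spread. The replicates of a group came from independent experiments, as the study describes them. The p-values measure the spread between the 2 libraries of each group. No sorting of the cultures is described, and a library holds the average over cells that had advanced and cells that had not, and fewer cells of a type cannot be told apart from less RNA per cell.

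During the first days of OSKM expression, fibroblasts pass through a mesenchymal-to-epithelial transition (MET), in which contractile and mesenchymal genes are switched off and cell-cell junction genes are switched on. The endogenous pluripotency network is activated stepwise, with factors such as Sall4 appearing before the late genes of the embryonic stem cell state. Forced factor expression also acts on proliferation, metabolism and chromatin, and the comparison of days 3 and 6 follows these programmes in cells whose own chromatin regulators were not targeted.

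The nt libraries, called D3a and D3b (day 3) and D6a and D6b (day 6) for replicates 1 and 2, held 15393826 and 17393793 reads at day 3 and 11700453 and 11248043 reads at day 6. The floor used here, 3 reads, stood for 0.171 to 0.240 CPM without the prior count of the deposited values. The CPM printed here include that prior, which puts 0 reads at 0.136 CPM. On this scale 3 reads were 0.334 CPM in D3a (*Esrrb*) and 0.307 CPM in D3b (*Lin28a*). A pair of levels joined by "to" gives the mean of the 2 libraries at day 3 and at day 6. Where refitting without 1 of the 4 libraries changed a list's count by more than 1.5 times or ended the call of a named gene, the value without that library is given beside it. Day 3 and day 6 libraries separated on the first principal component of the 4 libraries (87.0% of variance). A gene is said to have passed, risen or fallen when limma gave an adjusted p < 0.05 (Benjamini-Hochberg, two-sided), and to have been called when its log2 fold change also exceeded 1 in size. Between day 3 and day 6, 6474 genes passed (46.2%) and 1659 were called (11.8%). Of these, 1094 were higher at day 6 (7.80%) and 565 were lower (4.03%). Without the threshold on the fold change, 2667 genes passed as higher (19.0%) and 3807 as lower (27.1%), and the median change of all genes was −0.07. The rises were the larger changes: 91 called genes rose more than 8-fold and none fell as much. The largest fall, that of *Actg2*, was −2.97 on the log2 scale. The day 3 and day 6 libraries did not overlap for 78.2% of all genes tested, so that a lack of overlap alone separates few genes from the background. The share of reads from mitochondrial messenger RNA was 0.955% and 0.817% at day 3 and 2.13% and 2.06% at day 6. This share rests on the deposited values, in which *mt-Co2*, *mt-Co3*, *mt-Atp6* and *mt-Atp8* were below the filter. Gene coordinates are from GENCODE vM21 on GRCm38 (mm10), the build used by the authors.

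**Figure D1:**
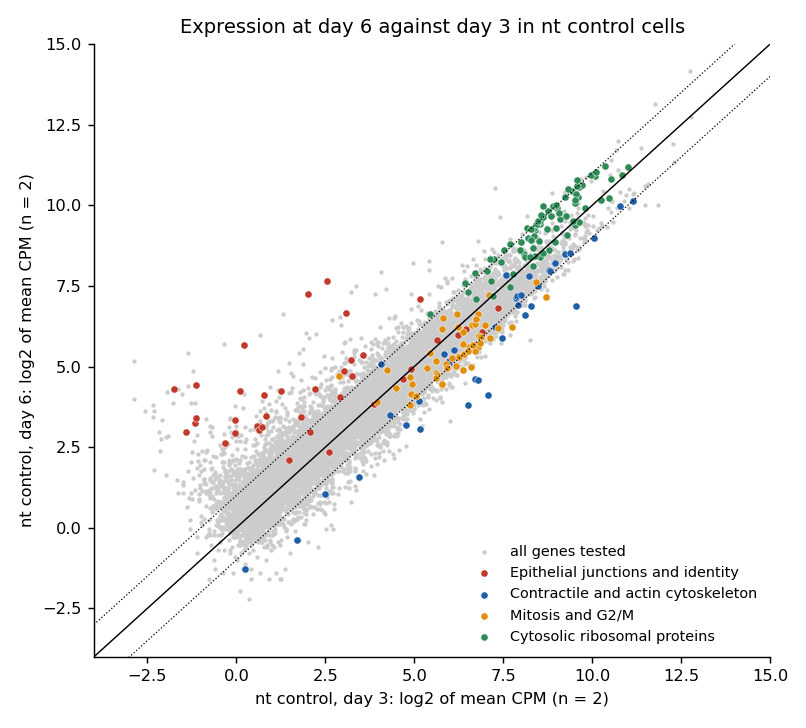
Log2 of the mean CPM at day 3 (horizontal axis) and at day 6 (vertical axis) in nt control cells, with 1 point per gene tested and members of 4 gene lists in colour. The solid line marks equal levels and the dotted lines a log2 fold change of 1; epithelial genes lie mostly above the upper line and contractile genes below the diagonal.

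No reprogramming factor gene passed as higher over the interval. *Pou5f1*, which encodes Oct4, was at 219 and 246 CPM at day 3 and 205 and 241 CPM at day 6, with overlapping days (log2 fold change −0.06, SE 0.25, adjusted p = 0.858). *Sox2* was at 324 and 350.4 CPM at day 3 and 167 and 216 CPM at day 6, *Klf4* at 677 and 743 CPM at day 3 and 393 and 495 CPM at day 6 and *Myc* at 628 and 647 CPM at day 3 and 305 and 391 CPM at day 6. For these 3 genes both day 6 libraries were below both day 3 libraries, and each fell, *Sox2* by 0.82, *Klf4* by 0.69 and *Myc* by 0.89 on the log2 scale (adjusted p = 0.0239, 0.0275 and 0.0026). The adjusted p of *Sox2* was 0.0665 without D3a, 0.11 without D3b and 0.17 without D6a, and that of *Klf4* was 0.0674 without D3a, 0.132 without D3b and 0.189 without D6a, while *Myc* passed in each of these settings. The files give 1 value per gene, in which cassette and endogenous transcripts are not separated, so neither source can be read from it. The direction for *Pou5f1* turned under quantile normalization (0.13) and without D3b (0.02) or D6a (0.05).

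Several pluripotency genes were near the detection floor at day 3 and rose. *Nanog*, a homeodomain factor of the naive network (chr6:122707489-122714633), was at 0.994 and 0.593 CPM at day 3 and 55.5 and 49.3 CPM at day 6. Both day 3 libraries were near the floor, with 13 and 8 reads, and both day 6 libraries were far above them (log2 fold change 6.09, SE 0.53, adjusted p = 1.05e-06). Under the conditions on level set for naming genes, this was the largest rise in the comparison. *Sall4*, a zinc finger factor activated early in reprogramming, was well above the floor at day 3 and went from 8.38 and 6.87 CPM to 28.6 and 35.1 CPM (log2 fold change 2.06, SE 0.26, adjusted p = 1.77e-05). *Dppa5a*, which encodes an RNA-binding protein of embryonic stem cells, had no read in either day 3 library and 385 and 523 reads at day 6, which is at least 183-fold higher when day 3 is set to the floor of 3 reads in a library. *Esrrb*, an orphan nuclear receptor of the late network, had 3 and 1 reads at day 3 and 79 and 99 at day 6, a ratio of 58.1 (95% interval 22.3 to 216, exact binomial). *Lin28a*, which encodes an RNA-binding protein that blocks let-7 maturation, had 1 and 3 reads and then 60 and 113, a ratio of 56.5 (21.7 to 209.6). These intervals cover counting error only. *Utf1* and *Zfp42* (Rex1) were below the filter and were not tested. *Utf1* was at 0.202 and 0.136 CPM and then 3.02 and 2.77 CPM, and *Zfp42* at 0.136 CPM in both day 3 libraries, which is the level of 0 reads, and at 0.936 and 0.774 CPM.

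Of the 22 listed early pluripotency genes, 19 were tested, and 11 rose and none fell, with a median log2 fold change of 0.79. The background is 19.0% of all genes passing as higher. Pluripotency genes with almost no day 3 reads were tested only through their day 6 level and could hardly count as fallers. The risers include *Tdgf1* (0.429 to 28.9 CPM, log2 fold change 6.33), which encodes the Nodal co-receptor Cripto, *Fbxo15* (1.09 to 7.28 CPM, log2 fold change 2.74), an Oct4 and Sox2 target, and the growth factor gene *Gdf3* (0.534 to 3.57 CPM, log2 fold change 2.74). Among the 28 listed genes of the late network, 18 were tested, of which 10 rose and 2 fell (median 0.79, the same with *Dppa5a* at its bound). The risers include *Tfcp2l1* (4.87 to 18.5 CPM, log2 fold change 1.93), a transcription factor downstream of LIF, and *Tdh* (8.50 to 35.2 CPM, log2 fold change 2.04), which encodes threonine dehydrogenase. *Dppa3* (Stella) had 1 read in the 2 day 3 libraries together and 302 at day 6. *Tet2*, a methylcytosine dioxygenase gene, fell (100.4 to 60.1 CPM, log2 fold change −0.74). *Nr5a2*, an orphan receptor that can replace Oct4 in reprogramming, did not pass in the control (5.26 to 8.16 CPM, adjusted p = 0.114).

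**Figure D2:**
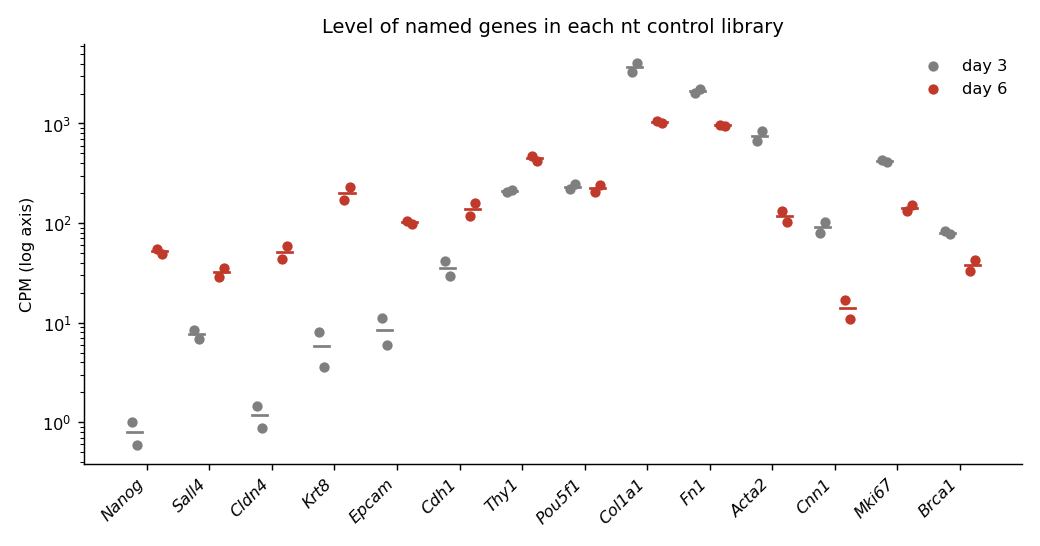
CPM of 14 named genes in each nt control library on a log axis, with day 3 in grey and day 6 in red, 2 points per day and a bar at their mean. *Nanog*, *Cldn4* and *Krt8* rise by more than 1 order of magnitude, *Pou5f1* overlaps between the days, and *Acta2*, *Cnn1* and *Mki67* are lower in both day 6 libraries.

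Most epithelial genes tested rose. All 45 listed junction and identity genes were in the table and 40 were tested. Of these, 29 rose (72.5%), 28 of them past the fold threshold, and 3 fell (7.5%), against 19.0% and 27.1% of all genes. The median was 2.22, against −0.07 for all genes. Members almost absent at day 3 were tested only through their day 6 level, so the count and the median are tilted towards rises. With a filter of 2 in place of 0 on the mean log2 CPM, which tests fewer genes, 15 rose. *Krt8* and *Krt18*, the keratin pair of simple epithelia, were at 8.05 and 3.56 CPM at day 3 and 169 and 232 CPM at day 6 and at 3.76 and 4.30 CPM at day 3 and 115 and 190.0 CPM at day 6, respectively. All day 6 libraries were above all day 3 libraries for both (log2 fold change 5.21 and 5.20, SE 0.37 and 0.28, adjusted p = 2.18e-07 and 1.86e-08). *Cldn4*, a tight junction claudin, went from 1.46 and 0.878 CPM to 43.4 and 59.0 CPM (log2 fold change 5.48, SE 0.34, adjusted p = 5.21e-08). *Epcam*, an epithelial adhesion molecule, was at 11.1 and 5.90 CPM at day 3 and 105 and 98.3 CPM at day 6 (log2 fold change 3.65, SE 0.34, adjusted p = 1.72e-06). *Cdh1*, which encodes E-cadherin (chr8:106603351-106670246), was already present at day 3 and rose less, from 41.5 and 29.4 CPM to 117 and 159 CPM (log2 fold change 1.97, SE 0.22, adjusted p = 7.57e-06). *Cldn6* (0.297 to 19.9 CPM, log2 fold change 6.14) and the polarity gene *Crb3* (0.457 to 21.7 CPM, log2 fold change 5.74) started with at most 8 reads in a day 3 library. The 3 genes that fell were the tight junction scaffold *Tjp1* (162 to 113 CPM, log2 fold change −0.53), the desmosomal plakin *Dsp* (235 to 142 CPM, log2 fold change −0.75) and the junction receptor *Cxadr* (120.0 to 67.3 CPM, log2 fold change −0.84). The adjusted p of *Dsp* was 0.0691 without D3b and 0.133 without D6a. Markers of stratified epithelium moved less. Of 32 listed, 11 were tested, with 4 risers led by the galectin *Lgals7* (0.888 to 10.4 CPM, log2 fold change 3.56) and *Krt14* (0.496 to 3.89 CPM, log2 fold change 2.98) and no faller, while *Trp63* (1.36 to 1.77 CPM, log2 fold change 0.32) did not pass (adjusted p = 0.472).

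Most of the promoters available for the epithelial genes share a letter pattern. A promoter was matched for 23 of the 40 tested members. The list was chosen with earlier results of these data known, so the share describes these members and is not independent support. RefSeq promoters on GRCm38.p6 (250 bases before and 50 after the start of transcription) matched 10195 of 14026 tested symbols. The E-box CAGGTG, the sequence bound by the EMT repressors of the Snail and Zeb families, was found on either strand in 17 of 23 epithelial promoters (73.9%), against 17.0% of all promoters. With matches before the start alone, the shares were 60.9% and 14.8%. In the promoters of genes called higher it was 25.7%, and in those called lower 17.5%. A match is a description of the letters and not a bound site. The promoters of the epithelial members with the largest rises among those with a match before the start are shown to let the spacing be read, with CAGGTG or its reverse complement in capitals:
*Cldn6* chr17:23679115-23679414 (+ strand): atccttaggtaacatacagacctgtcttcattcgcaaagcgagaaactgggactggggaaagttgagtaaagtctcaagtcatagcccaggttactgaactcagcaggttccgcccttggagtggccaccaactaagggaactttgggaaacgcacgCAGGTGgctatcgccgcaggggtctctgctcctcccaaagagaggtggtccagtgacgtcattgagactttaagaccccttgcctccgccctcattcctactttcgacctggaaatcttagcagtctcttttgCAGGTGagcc
*Crb3* chr17:57061951-57062250 (+ strand): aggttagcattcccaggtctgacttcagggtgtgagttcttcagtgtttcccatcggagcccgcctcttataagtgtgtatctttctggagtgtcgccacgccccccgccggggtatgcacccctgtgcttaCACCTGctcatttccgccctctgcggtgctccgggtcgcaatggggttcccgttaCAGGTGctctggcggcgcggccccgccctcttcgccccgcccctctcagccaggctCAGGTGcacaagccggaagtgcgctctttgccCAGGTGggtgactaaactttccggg
*Cldn4* chr5:134946885-134947184 (- strand): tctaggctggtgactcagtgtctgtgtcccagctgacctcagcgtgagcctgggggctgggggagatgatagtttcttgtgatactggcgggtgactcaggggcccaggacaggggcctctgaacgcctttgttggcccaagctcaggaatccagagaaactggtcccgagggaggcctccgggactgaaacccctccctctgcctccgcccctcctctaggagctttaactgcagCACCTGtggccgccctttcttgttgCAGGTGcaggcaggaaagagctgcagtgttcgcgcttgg
*Krt8* chr15:102004293-102004592 (- strand): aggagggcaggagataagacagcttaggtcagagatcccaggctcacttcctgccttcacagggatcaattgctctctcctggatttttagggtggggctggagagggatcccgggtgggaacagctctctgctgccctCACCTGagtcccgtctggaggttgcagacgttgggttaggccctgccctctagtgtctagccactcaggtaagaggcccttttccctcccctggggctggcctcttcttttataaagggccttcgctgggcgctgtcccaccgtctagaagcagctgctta
*Krt18* chr15:102027966-102028265 (+ strand): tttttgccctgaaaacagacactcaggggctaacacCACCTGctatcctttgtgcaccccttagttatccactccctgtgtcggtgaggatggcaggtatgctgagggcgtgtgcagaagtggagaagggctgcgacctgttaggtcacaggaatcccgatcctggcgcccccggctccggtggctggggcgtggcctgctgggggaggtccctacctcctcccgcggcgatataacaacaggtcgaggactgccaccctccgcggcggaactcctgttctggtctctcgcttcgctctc

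In these sequences the matches nearest to the start before it begin 93 bases upstream in *Cldn6*, 7 in *Crb3*, 14 in *Cldn4*, 111 in *Krt8* and 214 in *Krt18*. The Crb3 promoter holds 4 matches and RefSeq lists 2 starts for this gene, of which the first is shown. The genes of the factors that recognise this pattern did not pass, with the exception of *Zeb1*. *Snai1* was at 46.2 and 43.8 CPM at day 3 and 42.9 and 33.4 CPM at day 6 and did not pass (log2 fold change −0.25, adjusted p = 0.315), nor did *Snai2* at 15.7 and 13.0 CPM at day 3 and 18.6 and 16.1 CPM at day 6 (adjusted p = 0.201) or *Zeb2* at 86.4 and 85.4 CPM at day 3 and 74.9 and 79.2 CPM at day 6 (adjusted p = 0.366). *Zeb1* fell by 0.51 on the log2 scale, from 80.7 and 73.5 CPM to 59.2 and 49.1 CPM (adjusted p = 0.00708), with an adjusted p of 0.0653 without D3a and 0.0904 without D6b. *Twist1*, a further EMT factor, overlapped between the days (61.9 and 53.1 CPM at day 3 and 84.5 and 49.3 CPM at day 6, adjusted p = 0.522).

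Fibroblast genes moved both ways. Of 35 tested mesenchymal transcription factors, 2 rose and 11 fell (median −0.34), a share of fallers close to the background of 27.1%. The fallers, 5 without D3a, 6 without D3b and 4 without D6b, include the mesoderm factor gene *Osr1* (15.8 to 5.97 CPM, log2 fold change −1.45), whereas *Twist2* (10.5 to 21.7 CPM, log2 fold change 1.05) rose. Among 25 fibroblast surface markers and mesenchymal cadherins, 4 rose and 7 fell (median 0.05). These shares, 16% and 28%, were near the 19.0% and 27.1% of all genes. *Thy1*, the surface antigen used to follow the loss of fibroblast identity in reprogramming, was higher at day 6, at 469.8 and 422 CPM against 204 and 216 CPM (log2 fold change 1.08, SE 0.13, adjusted p = 1.53e-05). *Pdgfra*, the PDGF receptor α gene, was also higher in both day 6 libraries (75.0 to 167 CPM, log2 fold change 1.15), as was *Nt5e* (3.33 to 9.24 CPM, log2 fold change 1.49), which encodes CD73. *Cdh2*, the gene of N-cadherin, fell from 80.9 and 86.2 CPM to 46.1 and 37.0 CPM (log2 fold change −1.02, adjusted p = 1.19e-05), together with *Ncam1* (38.2 to 14.1 CPM, log2 fold change −1.44) and *Cd248* (101 to 48.5 CPM, log2 fold change −1.06). The summed level of the 8 fibroblast markers used to check the label was 9723 and 10897 CPM at day 3 and 5793 and 5581 CPM at day 6, with 2 risers and 4 fallers. The 6 epithelial markers summed to 65.3 and 43.8 CPM and then to 530.1 and 714 CPM.

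Contractile genes fell together. Of 37 listed, 36 were tested, 33 fell and 1 rose, with a median log2 fold change of −1.03 against a background of 27.1% of genes passing as lower. *Acta2*, smooth muscle α-actin and the hallmark of myofibroblasts (chr19:34241090-34255590), went from 671 and 832 CPM at day 3 to 131 and 103 CPM at day 6 (log2 fold change −2.69, SE 0.31, adjusted p = 9.35e-06). *Actg2*, smooth muscle γ-actin, was at 119.7 and 149 CPM at day 3 and 21.0 and 13.9 CPM at day 6 (log2 fold change −2.97, SE 0.30, adjusted p = 3.81e-06). *Cnn1*, calponin 1, was at 80.1 and 101 CPM at day 3 and 16.9 and 10.9 CPM at day 6 (log2 fold change −2.73, SE 0.29, adjusted p = 6.11e-06). Both day 6 libraries were well below both day 3 libraries for each of these 3 genes. The regulatory light chain gene *Myl9* (111 to 23.8 CPM, log2 fold change −2.21), the thin-filament nucleator gene *Lmod1* (36.1 to 8.28 CPM, log2 fold change −2.12) and *Tagln* (3.25 to 0.775 CPM, log2 fold change −2.05) fell too. The member that rose was the LIM domain gene *Csrp2* (16.7 to 33.7 CPM, log2 fold change 1.01). *Srf*, which encodes the serum response factor that binds the CArG box, fell by 0.61 on the log2 scale (69.2 to 45.4 CPM).

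The CArG box, the sequence in which CC and GG flank 6 A or T bases, occurred in 5 of 28 promoters of the contractile list (17.9%) and in 1.31% of all promoters. The core CATTCC of the sites of TEAD factors, the DNA-binding partners of YAP and TAZ, occurred in 13 of the 28 (46.4%) and in 11.9% of all. For genes called lower the share was 3.45% for the CArG box and 17.0% for CATTCC. The promoters of the 3 contractile genes called lower that hold a CArG box are shown with the box in capitals. *Acta1*, skeletal α-actin, and *Vcl*, vinculin, are named for this match, after their values were seen (log2 fold change −1.89 and −1.38):
*Myl9* chr2:156775214-156775513 (+ strand): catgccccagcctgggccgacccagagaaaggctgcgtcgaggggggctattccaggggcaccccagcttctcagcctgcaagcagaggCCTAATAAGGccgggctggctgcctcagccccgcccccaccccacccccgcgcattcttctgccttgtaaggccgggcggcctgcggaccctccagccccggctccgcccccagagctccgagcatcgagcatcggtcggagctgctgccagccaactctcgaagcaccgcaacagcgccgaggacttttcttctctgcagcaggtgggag
*Acta1* chr8:123894726-123895025 (- strand): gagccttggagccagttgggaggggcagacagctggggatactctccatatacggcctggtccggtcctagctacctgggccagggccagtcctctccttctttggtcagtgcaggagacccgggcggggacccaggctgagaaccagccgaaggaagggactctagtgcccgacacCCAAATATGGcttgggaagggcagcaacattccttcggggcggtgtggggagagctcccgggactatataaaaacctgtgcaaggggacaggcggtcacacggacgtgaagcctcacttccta
*Vcl* chr14:20929148-20929447 (+ strand): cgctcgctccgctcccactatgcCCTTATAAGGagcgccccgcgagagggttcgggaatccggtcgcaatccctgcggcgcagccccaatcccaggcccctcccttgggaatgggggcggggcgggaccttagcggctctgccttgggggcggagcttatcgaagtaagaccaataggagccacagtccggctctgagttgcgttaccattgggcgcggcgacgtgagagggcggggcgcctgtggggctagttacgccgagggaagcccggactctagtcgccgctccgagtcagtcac

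Target genes of YAP and TAZ, the coactivators that respond to cell tension, also went down: 15 of 23 tested fell and 1 rose (median −0.46). *Ctgf*, a matricellular factor gene, went from 29.8 and 42.2 CPM to 9.25 and 11.3 CPM (log2 fold change −1.79, SE 0.45, adjusted p = 0.00382), and *Ankrd1* (20.0 to 7.17 CPM, log2 fold change −1.46) fell with it. Of the 26 genes of TGF-β ligands, receptors and feedback, 5 rose (3 without D3a or D6a) and 8 fell (median −0.30), shares close to the 19.0% and 27.1% of all genes. *Tgfb3* (65.9 to 20.6 CPM, log2 fold change −1.68) fell, and *Inhbb* (208 to 497 CPM, log2 fold change 1.26), an activin subunit gene, and *Tgfb1* (11.6 to 20.7 CPM, log2 fold change 0.83) rose. All nt libraries were grown with Alk5i, so its part in these levels was not tested.

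**Figure D3:**
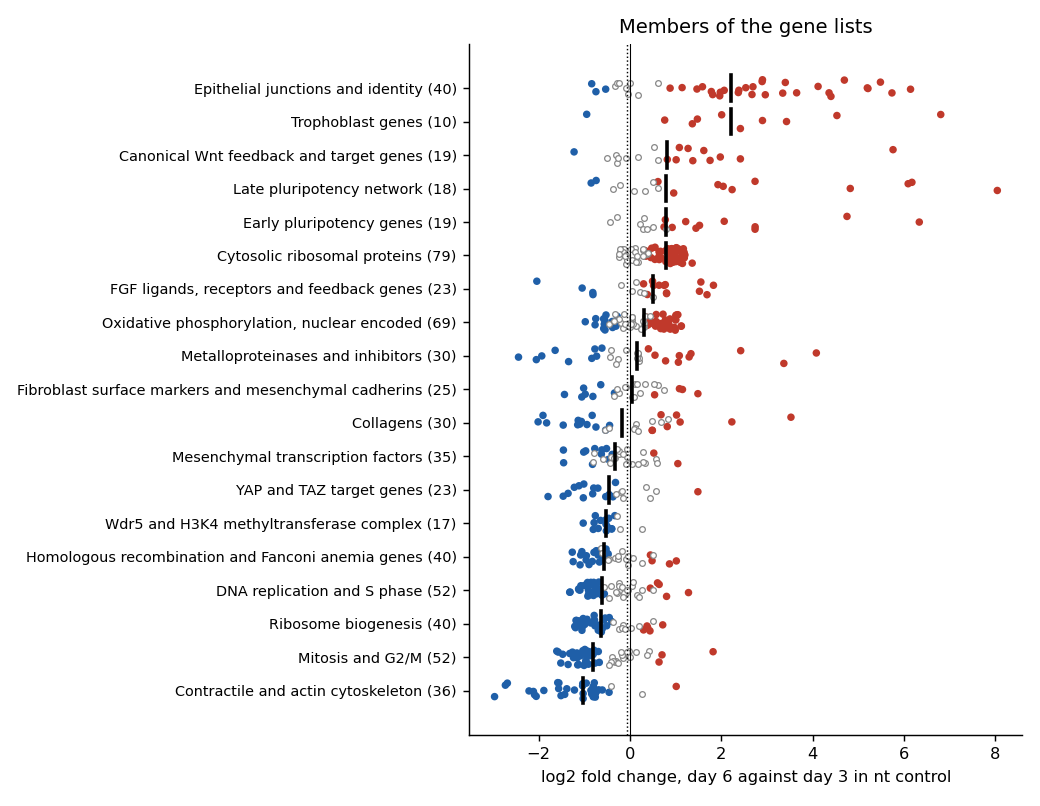
Log2 fold change from day 3 to day 6 of each tested member of 19 gene lists (number tested in parentheses), with members that passed in red (higher) or blue (lower), others open, and a black bar at the list median. The dotted line is the median of all genes, −0.07. The epithelial list has its median at 2.22 and the contractile list at −1.03, while collagens and metalloproteinases spread to both sides.

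Matrix genes split. *Col1a1*, the α1 chain of type I collagen, fell from 3312 and 4043 CPM to 1048 and 1016 CPM (log2 fold change −1.83, SE 0.21, adjusted p = 1.13e-05), and *Fn1*, fibronectin, from 2022 and 2201 CPM to 972 and 950.4 CPM (log2 fold change −1.13, SE 0.17, adjusted p = 8.60e-05). Of 30 collagen genes tested, 13 fell (43.3%) and 8 rose (26.7%, 5 genes without D3a or D6b). The fallers include *Col8a1* (74.0 to 26.7 CPM, log2 fold change −1.46) and the cartilage collagen *Col2a1* (12.5 to 3.21 CPM, log2 fold change −2.01), and the risers the basement membrane collagen *Col18a1* (169 to 795 CPM, log2 fold change 2.23) and *Col25a1* (1.14 to 13.1 CPM, log2 fold change 3.52). Of 44 matrix glycoproteins and proteoglycans, 12 rose (27.3%, 7 genes without D6a) and 15 fell (34.1%), shares not far above the background. The small leucine-rich proteoglycan genes went in opposite directions: *Lum*, lumican, went from 12.9 and 7.55 CPM to 192 and 168 CPM (log2 fold change 4.19, SE 0.38, adjusted p = 1.55e-06) and *Dcn* (31.0 to 296 CPM, log2 fold change 3.25), decorin, rose, whereas *Fmod* (42.5 to 12.7 CPM, log2 fold change −1.77), fibromodulin, fell. *Spp1*, osteopontin, was at 161 and 145 CPM at day 3 and 1631 and 1311 CPM at day 6 (log2 fold change 3.26). Of 23 collagen crosslinking and processing genes, 4 rose and 4 fell (17.4% each), which is not above the background. The lysyl oxidases *Lox* (112 to 44.2 CPM, log2 fold change −1.34) and *Loxl2* (79.8 to 31.7 CPM, log2 fold change −1.33) were among the fallers.

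Of 30 metalloproteinase and inhibitor genes tested, 10 rose (33.3%) and 9 fell (30%). *Mmp3*, stromelysin 1, went from 11.3 and 7.55 CPM to 192 and 127 CPM (log2 fold change 4.08, SE 0.28, adjusted p = 1.42e-07). The collagenase *Mmp13* (4.59 to 24.8 CPM, log2 fold change 2.42) and the gelatinase *Mmp2* (127 to 321 CPM, log2 fold change 1.33) rose with it. The inhibitor *Timp3* (101 to 33.0 CPM, log2 fold change −1.64) and the disintegrin metalloproteinases *Adam12* (36.8 to 8.92 CPM, log2 fold change −2.05) and *Adamts5* (85.8 to 22.5 CPM, log2 fold change −1.93) fell. Integrin and laminin subunits gave 5 risers (3 without D6a) and 7 fallers of 26, which is the background share in both directions (19.0% and 27.1%), with *Lama5* (123 to 247 CPM, log2 fold change 1.01), the epithelial laminin chain, higher and *Lama1* (139.9 to 52.6 CPM, log2 fold change −1.41) and *Lama2* (21.5 to 7.12 CPM, log2 fold change −1.60) lower.

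Genes of cell division fell between the days, against a background of 19.0% of all genes passing as higher and 27.1% as lower. Among 52 genes of mitosis and G2/M, 32 fell and 3 rose (median −0.81), and among 52 genes of DNA replication and S phase, 28 fell and 5 rose (median −0.62). *Mki67*, the proliferation antigen Ki-67, was at 425 and 414 CPM at day 3 and 131 and 152 CPM at day 6 (log2 fold change −1.57, SE 0.22, adjusted p = 5.41e-05). *Foxm1*, the transcription factor of the G2/M programme, went from 94.9 and 96.6 CPM to 30.3 and 32.7 CPM (log2 fold change −1.60, SE 0.20, adjusted p = 1.76e-05). The mitotic kinase gene *Plk1* (82.5 to 29.9 CPM, log2 fold change −1.47) and the condensin gene *Ncapd2* (213 to 74.5 CPM, log2 fold change −1.52) fell too. Neither gene list moved as 1 block: the securin gene *Pttg1* (7.43 to 26.3 CPM, log2 fold change 1.82) and the checkpoint gene *Mad2l1* (55.4 to 90.1 CPM, log2 fold change 0.70) rose. *Rrm2*, a ribonucleotide reductase subunit gene, fell (210.0 to 84.1 CPM, log2 fold change −1.32), as did *Pole* (111 to 44.7 CPM, log2 fold change −1.31) and *Mcm4* (138 to 63.8 CPM, log2 fold change −1.12), but *Pcna*, the polymerase clamp, did not pass at 155 and 144 CPM at day 3 and 186 and 158 CPM at day 6 (adjusted p = 0.45), and *Rpa3* (15.2 to 37.1 CPM, log2 fold change 1.28) rose. Among CDK inhibitors and D cyclins, 3 of 13 rose and 4 fell (2 without any 1 library). With all libraries these shares, 23.1% and 30.8%, were near the background. *Cdkn2a*, which encodes Ink4a and Arf, rose from 51.9 and 66.0 CPM to 109 and 95.2 CPM (log2 fold change 0.80, adjusted p = 0.00117), with its neighbour *Cdkn2b* (44.2 to 83.7 CPM, log2 fold change 0.91) and the imprinted inhibitor *Cdkn1c* (15.6 to 51.6 CPM, log2 fold change 1.71). *Cdkn1a* (p21) did not pass at 418 and 433 CPM at day 3 and 485 and 432 CPM at day 6 (adjusted p = 0.532), and *Cdk6* (229.9 to 85.6 CPM, log2 fold change −1.43) and *Ccnd2* (1477 to 883 CPM, log2 fold change −0.74) fell. Of 29 p53 targets, 9 rose (5 without D3b and 4 without D6a) and 4 fell (2 without any 1 library) (median 0.19), with *Trp53inp1* (151 to 373 CPM, log2 fold change 1.31) and the Noxa gene *Pmaip1* (29.6 to 62.0 CPM, log2 fold change 1.06) among the risers.

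Promoters of the mitosis list carried the 2 elements known from cell cycle genes. The CHR element, TTTGAA on either strand, was in 32 of 43 promoters (74.4%) and in 11.6% of all, and the CCAAT box was in 32 of 43 (74.4%) and in 38.8% of all. With matches before the start alone, CHR was in 32.6% against 10.2%. For genes called lower, CHR stood at 14.5% and the CCAAT box at 36.9%, both close to all promoters. The promoters of *Mki67* and *Ncapd2*, the members called lower with the largest falls among those with a promoter and a CCAAT box before the start, are shown with CCAAT or its reverse complement in capitals:
*Mki67* chr7:135716330-135716629 (- strand): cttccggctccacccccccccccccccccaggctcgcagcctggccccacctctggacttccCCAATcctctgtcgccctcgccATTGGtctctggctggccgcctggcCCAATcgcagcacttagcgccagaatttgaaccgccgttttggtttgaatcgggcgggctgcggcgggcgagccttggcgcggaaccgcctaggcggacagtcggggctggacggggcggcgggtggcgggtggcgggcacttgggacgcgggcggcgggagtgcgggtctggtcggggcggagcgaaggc
*Ncapd2* chr6:125191537-125191836 (- strand): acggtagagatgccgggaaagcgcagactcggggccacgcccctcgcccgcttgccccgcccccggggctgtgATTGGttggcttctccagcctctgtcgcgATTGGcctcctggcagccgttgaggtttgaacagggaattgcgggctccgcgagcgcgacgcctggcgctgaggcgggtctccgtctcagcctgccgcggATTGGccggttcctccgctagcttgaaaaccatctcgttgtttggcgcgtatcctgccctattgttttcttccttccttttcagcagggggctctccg

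Homologous recombination and Fanconi anemia genes fell in 22 of 40 cases, 13 without D6a, and rose in 4, 2 without any 1 library (median −0.56). *Brca1*, which encodes a ubiquitin ligase of homologous recombination, went from 82.4 and 78.0 CPM to 33.2 and 42.6 CPM in these untargeted cells (log2 fold change −1.09, SE 0.22, adjusted p = 7.09e-04), and *Bard1*, its partner, from 30.5 and 29.1 CPM to 11.3 and 14 CPM (log2 fold change −1.24, SE 0.21, adjusted p = 1.87e-04). *Wdr5*, the shared subunit of the H3K4 methyltransferase complexes, fell less, from 132 and 130.4 CPM to 91.8 and 98.1 CPM (log2 fold change −0.47, SE 0.12, adjusted p = 0.00539). All 3 genes that the knockdowns target were thus lower at day 6 than at day 3 in the control. Of 17 tested members of the Wdr5 and H3K4 methyltransferase list, 14 fell and none rose (median −0.52), led by the host cell factor gene *Hcfc1* (407 to 199.9 CPM, log2 fold change −1.02). Among 12 PRC2 subunits, *Ezh2* (61.1 to 32.9 CPM, log2 fold change −0.90), *Phf19* (6.79 to 3.69 CPM, log2 fold change −0.94) and *Aebp2* (136 to 79.9 CPM, log2 fold change −0.77) fell and *Eed* (43.4 to 62.2 CPM, log2 fold change 0.52) and *Mtf2* (26.5 to 37.5 CPM, log2 fold change 0.51) rose. The adjusted p of *Phf19* was 0.0955 without D3a, 0.071 without D3b and 0.268 without D6a, and that of *Mtf2* was 0.0877 without D3b. Of 16 genes of DNA methylation and demethylation, 5 rose and 7 fell (31.25% and 43.75%). The shares for PRC2 subunits were 16.7% and 25%, near the 19.0% and 27.1% of all genes tested. The maintenance methyltransferase *Dnmt1* (325 to 164 CPM, log2 fold change −0.99) and its partner *Uhrf1* (216 to 119.8 CPM, log2 fold change −0.86) fell, while the de novo enzyme *Dnmt3b* (6.80 to 19.6 CPM, log2 fold change 1.52) rose. Of the dioxygenases, *Tet1* (8.68 to 20.0 CPM, log2 fold change 1.19) rose and *Tet3* (152 to 84.9 CPM, log2 fold change −0.85) fell.

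Ribosome biogenesis genes and ribosomal protein genes went in opposite directions. The background for the counts that follow is 19.0% of all genes passing as higher and 27.1% as lower. Of 40 biogenesis genes, 27 fell and 5 rose, 3 without D3a, 1 without D3b and 2 without D6a or D6b (median −0.64). The nucleolar chaperone gene *Nolc1* went from 264 and 286 CPM to 113 and 125 CPM (log2 fold change −1.21, SE 0.14, adjusted p = 8.69e-06). *Polr1b* (114 to 50.2 CPM, log2 fold change −1.18), an RNA polymerase I subunit gene, and *Ddx21* (464 to 207 CPM, log2 fold change −1.17) fell too. Of 79 tested cytosolic ribosomal protein genes, 55 rose and none fell (median 0.79), for example *Rps27* (394 to 1016 CPM, log2 fold change 1.36) and *Rps14* (767 to 1763 CPM, log2 fold change 1.20). Ribosomal protein genes have many processed pseudogenes, and how reads shared with these copies were assigned is not stated in the sources used here. Of 13 listed mitochondrial genes, 7 were tested. *mt-Co2*, *mt-Co3*, *mt-Atp6* and *mt-Atp8* were below the filter, and *mt-Nd3* and *mt-Nd4l* had no deposited values. How the reads of these genes were assigned is not stated either. Nuclear genes of oxidative phosphorylation rose in 31 of 69 cases (44.9%, 18 genes without D6a) and fell in 13 (18.8%), with a median of 0.30. The 7 tested mitochondrial genes all rose, among them *mt-Co1* (3493 to 8930.2 CPM, log2 fold change 1.36) and *mt-Cytb* (1639 to 3363 CPM, log2 fold change 1.03).

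Gene length moved with these differences. Over 12601 protein-coding genes, Spearman's correlation between summed exon length and the log2 fold change was −0.27, where genes are not independent replicates. The median change was 0.19 in the shortest quintile (303 to 2620 bases) and −0.32 in the longest (7880 bases or more), and the share passing as higher went from 30.8% to 10.0%. The 2 day 6 replicates differed by length as well, with a correlation of 0.32 for replicate 2 against replicate 1, and the day 3 replicates less, with −0.08. Ribosomal protein genes are short, with a median of 1830.0 bases. Relative to the median of the same length quintile, their median change was 0.63 in place of 0.79. In the same terms it was 0.17 for nuclear oxidative phosphorylation genes, −0.38 for the H3K4 list, −0.67 for mitosis, −0.94 for contractile genes and 2.20 for epithelial genes. The median of the collagens turned from −0.18 to 0.03.

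**Figure D4:**
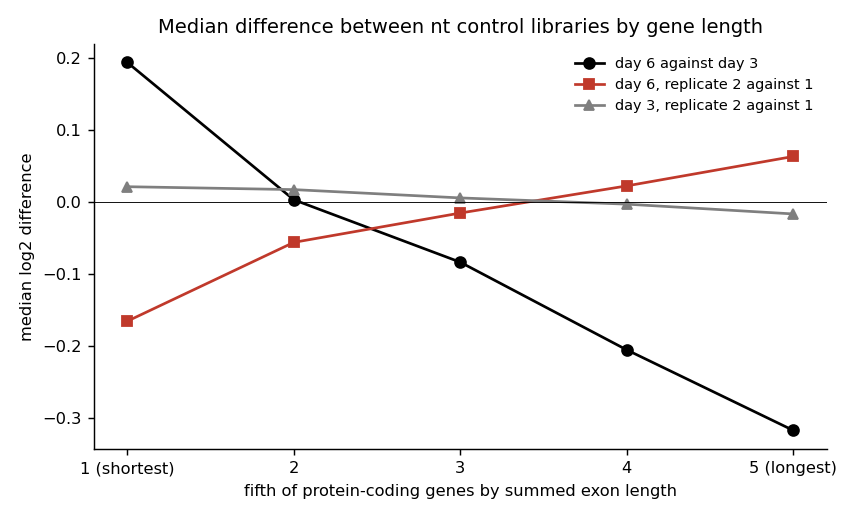
Median log2 difference between nt control libraries for protein-coding genes in quintiles of summed exon length, for day 6 against day 3 (black), replicate 2 against 1 at day 6 (red) and at day 3 (grey). The black line falls from 0.19 to −0.32 and the red line rises from −0.17 to 0.06.

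Signalling genes are read against the background of 19.0% passing as higher and 27.1% as lower. Of 19 tested feedback and target genes of canonical Wnt signalling, 10 rose and 1 fell (median 0.82). *Dkk4*, a secreted antagonist, had 1 read in each day 3 library and 161 and 109 reads at day 6. *Notum*, a secreted deacylase of Wnt ligands, was at 14.2 and 13.3 CPM at day 3 and 55.1 and 53.2 CPM at day 6 (log2 fold change 1.98, SE 0.15, adjusted p = 4.00e-07). *Ascl2* (1.01 to 5.44 CPM, log2 fold change 2.42) rose too, while the receptor gene *Lgr5* (3.37 to 1.41 CPM, log2 fold change −1.22) fell, with an adjusted p of 0.21 without D3a, 0.0893 without D6a and 0.128 without D6b. Chiron was in the medium at both days, so its part in these levels was not tested. FGF ligands, receptors and feedback genes rose in 13 of 23 cases and fell in 4, 2 without D3b or D6a (median 0.49), with the ERK phosphatase gene *Dusp6* (25.4 to 74.6 CPM, log2 fold change 1.55) and *Etv1* (8.47 to 27.2 CPM, log2 fold change 1.69) among the risers and the receptor *Fgfr3* (6.71 to 1.65 CPM, log2 fold change −2.04) among the fallers. The shares of the next 3 lists were nearer to the background. BMP genes gave 8 risers and 10 fallers (6 without D3b or D6b) of 29, such as *Bmp2* (5.06 to 17.4 CPM, log2 fold change 1.79) and *Gdf5* (2.19 to 0.376 CPM, log2 fold change −2.68). Of 17 LIF and STAT3 targets, 4 rose and 4 fell (1 without D3a and 2 without D3b or D6a), and *Il6st* (336 to 142 CPM, log2 fold change −1.24), the gp130 receptor subunit gene, was among the fallers. No AP-1 or immediate early gene of 26 tested was called, with 4 that rose (0 without D6a) and 5 that fell (3 without D3a or D3b and 2 without D6b).

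Genes of extraembryonic and other lineages were measured beside the pluripotency genes. Over all genes tested, 19.0% passed as higher and 27.1% as lower. Of 16 listed trophoblast genes, 10 were tested, 9 rose and 1 fell (median 2.21). *Cdx2*, *Elf5*, *Hand1*, *Plac1* and *Rhox9* were below the filter. Members almost absent at day 3 were tested only through their day 6 level, so the count and the median are tilted towards rises. *Rhox6*, an X-linked homeobox gene, had no read at day 3 and 137 and 261 reads at day 6, at least 80.3-fold higher against the floor. *Tfap2c*, a trophoblast and early germ cell factor gene, went from 2.31 and 1.51 CPM to 15.8 and 25.5 CPM (log2 fold change 3.43, SE 0.28, adjusted p = 8.11e-07). *Gata2* (12.5 to 35.5 CPM, log2 fold change 1.48) and *Gata3* (2.36 to 6.05 CPM, log2 fold change 1.37) rose, whereas *Tead4* (32.6 to 16.9 CPM, log2 fold change −0.95) fell. Imprinted genes gave 8 risers (5 without D6b) and 7 fallers of 27, where the share of fallers, and without D6b that of risers, is near the background. *Peg10*, a paternally expressed retrotransposon-derived gene of the placenta, was at 124 and 97.9 CPM at day 3 and 305 and 646 CPM at day 6 (log2 fold change 2.01). Both day 6 libraries were above both day 3 libraries but stood apart from each other. *Phlda2*, an imprinted placental growth gene, had 1 read in each day 3 library and 131 and 217 at day 6. *Plagl1* (72.2 to 26.9 CPM, log2 fold change −1.42) and *Dio3* (4.83 to 1.49 CPM, log2 fold change −1.69) fell. Of the primitive endoderm list, 9 genes were tested with 2 risers and 2 fallers, *Sox7* (1.61 to 7.32 CPM, log2 fold change 2.24) being the one with the largest rise, while *Gata4* (1.35 to 1.05 CPM, log2 fold change −0.34) and *Gata6* (6.32 to 4.33 CPM, log2 fold change −0.58) did not pass (adjusted p = 0.563 and 0.0622). Of 10 neural genes tested, 6 fell and 2 rose, of 3 primitive streak and mesoderm genes 1 fell, and of 2 germline genes *Tex15*, a gene of meiotic recombination, rose (2.43 to 14.3 CPM, log2 fold change 2.56). Of 33 Hox genes, 10 fell (5 without D3a, 3 without D3b, 6 without D6a and 4 without D6b) and 1 rose (median −0.28).

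Genes of sugar and lipid handling changed in both directions, against a background of 19.0% of all genes passing as higher and 27.1% as lower. The shares of the serine, one-carbon and ATF4 list were near this background (19.2% and 30.8%). They were 23.5% and 35.3% for the IGF axis and 34.5% and 27.6% for glycolysis and pentose phosphate genes. *Slc2a3*, the high-affinity glucose transporter GLUT3, went from 18.0 and 15.6 CPM to 201 and 291 CPM (log2 fold change 3.85, SE 0.19, adjusted p = 1.78e-08). *Slc2a1* (GLUT1) was at 69.1 and 64.2 CPM at day 3 and 188 and 239.8 CPM at day 6 (log2 fold change 1.67). The lactate exporter gene *Slc16a3* (2.26 to 29.0 CPM, log2 fold change 3.64) rose, and the hexokinase gene *Hk2* (202 to 81.5 CPM, log2 fold change −1.31) fell. Of 29 glycolysis and pentose phosphate genes, 10 rose and 8 fell (5 without D3a), with a median of 0.07. Lipid droplet and adipogenic genes rose in 8 of 18 cases, 4 without D3b or D6a, and fell in 1 (median 0.42), among them *Plin2* (125 to 384 CPM, log2 fold change 1.62) and *Fabp4* (2.13 to 10.9 CPM, log2 fold change 2.38), while *Fasn* (899 to 473 CPM, log2 fold change −0.93) fell. Cholesterol synthesis genes were near 0 in the median (−0.01), with 7 risers (2 without D3b or D6a and 4 without D6b) and 1 faller of 25. Of 26 serine, one-carbon and ATF4 target genes, 5 rose (3 without D3b or D6a) and 8 fell, the cystine transporter *Slc7a11* (81.0 to 283 CPM, log2 fold change 1.81) being a riser and *Shmt2* (199 to 99.8 CPM, log2 fold change −0.99) a faller. The IGF axis had 4 risers (2 without D3a or D3b or D6b) and 6 fallers of 17, including *Igfbp3* (29.9 to 111 CPM, log2 fold change 1.89) and *Igf1r* (267 to 164 CPM, log2 fold change −0.71). Interferon-stimulated genes gave 10 risers (5 without D3b and 3 without D6a) and no faller of 32 tested, led by the class I gene *H2-K1* (12.3 to 49.2 CPM, log2 fold change 2.00). Chemokine and interleukin genes gave 10 risers (6 without D6a) and 4 fallers (2 without D3b or D6a) of 25, such as *Ccl8* (0.595 to 4.09 CPM, log2 fold change 2.78) and *Cxcl12* (49.8 to 19.1 CPM, log2 fold change −1.38).

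The 15 largest rises among genes of at least moderate level (2 or more on the log2 CPM scale in the mean of the series) held several genes outside these programmes. *Fabp3*, a fatty acid binding protein gene of heart and muscle, went from 1.39 and 1.79 CPM to 52.1 and 72.6 CPM (log2 fold change 5.29, SE 0.47, adjusted p = 1.23e-06). *Agtr2*, the type 2 angiotensin receptor gene, was at 4.42 and 3.33 CPM at day 3 and 65.6 and 66.2 CPM at day 6 (log2 fold change 4.10). *Dusp9* (4.15 to 58.8 CPM, log2 fold change 3.78), which encodes an ERK phosphatase, *Trh* (4.74 to 64.9 CPM, log2 fold change 3.77), the precursor of thyrotropin-releasing hormone, *Apela* (3.65 to 46.3 CPM, log2 fold change 3.67), a peptide ligand of the apelin receptor, *Gldn* (6.49 to 87.0 CPM, log2 fold change 3.74) and *Cadps* (1.17 to 17.7 CPM, log2 fold change 3.94) were also among them. The 15 largest falls held, beside contractile genes, the pentraxin gene *Ptx3* (64.7 to 9.88 CPM, log2 fold change −2.72), the hyaluronan synthase gene *Has2* (21.5 to 4.53 CPM, log2 fold change −2.25), the matrix genes *Hmcn1* (23.6 to 5.37 CPM, log2 fold change −2.22) and *Adamts20* (14.7 to 3.09 CPM, log2 fold change −2.27), *Siglecg* (6.56 to 0.975 CPM, log2 fold change −2.73), *Gprin3* (9.30 to 1.73 CPM, log2 fold change −2.43), *Frmd3* (27.5 to 5.81 CPM, log2 fold change −2.25), *Strip2* (10.3 to 2.25 CPM, log2 fold change −2.22) and *Prss23* (21.3 to 4.89 CPM, log2 fold change −2.11). All day 6 libraries lay outside the range of the day 3 libraries for these 30 genes by the rule that selected them.

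Markers of cells that a fibroblast preparation may also hold were mostly low. The 14 macrophage and leukocyte markers in the table summed to 21.7 and 18.8 CPM at day 3 and to 34.5 and 29.0 CPM at day 6. Of 8 tested, 3 rose, among them *Cd53* (0.490 to 2.37 CPM, log2 fold change 2.47), while *Csf1r* was at 1.32 and 1.68 CPM at day 3 and 1.90 and 1.09 CPM at day 6. Endothelial markers summed to 57.5 and 57.2 CPM and then 35.3 and 36.1 CPM, with *Tek* (40.0 to 14.2 CPM, log2 fold change −1.49) and *Flt1* (9.22 to 3.69 CPM, log2 fold change −1.32) lower and *Plvap* (1.02 to 7.44 CPM, log2 fold change 2.94) higher. Schwann and melanocyte markers summed to 17.8 and 17.1 CPM and then 41.4 and 37.0 CPM, with 3 risers of 5 including *Erbb3* (3.15 to 12.4 CPM, log2 fold change 1.98). Erythroid markers summed to 4.31 to 7.50 CPM in the 4 libraries, and neither tested gene passed. Skeletal muscle markers summed to 16 and 15.7 CPM at day 3 and to 129 and 121 CPM at day 6. Most of this rise was *Mylpf*, the regulatory light chain gene of fast muscle myosin, at 2.18 and 2.76 CPM at day 3 and 107 and 91.7 CPM at day 6 (log2 fold change 5.34, SE 0.48, adjusted p = 1.55e-06), while *Myh3* (2.34 to 3.05 CPM, log2 fold change 0.40) did not pass (adjusted p = 0.434). The part of such cells in the other results was not tested.

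The course from day 3 to day 6 was also followed in the knockdown cells, which share no library with the control. Of the 1094 genes called higher in the control, 511 (46.7%) were called higher in siWdr5, 573 (52.4%) in siBrca1 and 596 (54.5%) in siBard1. These are 64.0%, 40.4% and 66.5% of the genes called higher in those courses, where 5.70%, 10.1% and 6.39% of all genes were called higher. Of the 565 called lower, 126 (22.3%), 224 (39.6%) and 224 (39.6%) were called lower, which is 54.8%, 27.3% and 47.9% of each course's calls (background 1.64%, 5.86% and 3.34%). In each of the 3 courses 348 of the higher and 99 of the lower genes were called, and 306 and 283 in none of them. For epithelial genes the median change was 2.22 in the control and 2.74, 2.69 and 1.88 in siWdr5, siBrca1 and siBard1. For contractile genes it was −1.03 against −0.96, −1.90 and −1.21, and for ribosomal protein genes 0.79 against 0.80, 0.75 and 0.89.

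Cell division genes were lower at day 6 in the control and had medians nearer to 0 or above it in the knockdowns. The median change was −0.81 in the control for the mitosis list and 0.03, 0.50 and −0.16 in siWdr5, siBrca1 and siBard1. The control course minus the mean knockdown course was tested directly, and 366 genes were called (2.61%), 213 with a more positive (1.52%) and 153 with a more negative (1.09%) course in the control. Without the fold threshold 13.7% of all genes passed, 4.52% as more positive and 9.14% as more negative, and 44 of 52 mitosis genes, 41 of 52 replication genes, 31 of 40 ribosome biogenesis genes and 15 of 40 recombination genes passed as more negative. These counts were 0 in each list without D3a, D3b or D6a, and 21, 20, 23 and 9 without D6b. The levels of *Mki67* were 425 and 414 CPM in the control at day 3 and 133 to 389 CPM in the 6 knockdown libraries of that day, and 131 and 152 CPM against 126 to 225 CPM at day 6. At day 3 both control libraries were therefore above every knockdown library, and at day 6 both lay within the range of the knockdown libraries. For *Sall4* the control rose less than the mean knockdown course (difference −1.24, SE 0.29, adjusted p = 0.0164, and up to 0.1002 in the alternatives tried), from the highest day 3 levels of the series to 28.6 and 35.1 CPM against 14.4 to 31.4 CPM in the knockdowns at day 6.

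The genes with the largest differences of course among those averaging 2 or more on the log2 CPM scale held several genes outside these lists. *Penk*, the precursor of enkephalin peptides, was at 12.7 and 9.49 CPM at day 3 and 10.9 and 4.92 CPM at day 6 in the control and reached 17.4 to 48.5 CPM at day 6 in the knockdowns (difference −2.93 on the log2 scale, adjusted p = 0.00559, and up to 0.053 in the alternatives tried). *Trpv2*, a cation channel gene, was at 1.52 and 3.27 CPM at day 3 and 3.34 and 7.31 CPM at day 6 in the control and at 6.48 to 16.8 CPM and then 2.35 to 5.08 CPM in the knockdowns (difference 2.44, adjusted p = 0.0101, and up to 0.0688). The fatty acid binding protein genes *Fabp3* and *Fabp4* and *Pdk4*, which encodes an inhibitory kinase of pyruvate dehydrogenase, had more positive courses in the control, by 2.01, 2.22 and 1.95, with adjusted p = 0.0255, 0.0175 and 0.00627, and up to 0.177, 0.104 and 0.0599 in the alternatives. For *Pdk4* the control levels at day 3 (6.53 and 5.78 CPM) were below every knockdown library of that day (16.2 to 39.7 CPM).

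This test depended on each control library. Without nt day 3 replicate 1 it called 6 genes, without nt day 3 replicate 2 it called 19, without nt day 6 replicate 1 it called 44, and without nt day 6 replicate 2 it called 307. Of the mitosis genes, 51 of 52 had a negative difference in each setting and the median difference stayed between −0.96 and −0.80. Against single courses, each tested with the same control libraries, the control differed by 195 called genes from siWdr5 (1.39%), by 1206 from siBrca1 (8.60%) and by 6 from siBard1 (0.0428%). On the second principal component of all 16 libraries, the day 3 control libraries had the lowest values, −45.9 and −42.0. The siBrca1 replicates of day 3 stood apart from each other on it, at 17.0 and 43.3. Their *Mki67* levels were 252 and 133 CPM. Leaving out a knockdown library was not tried, so these counts do not rank the knockdowns.

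**Figure D5:**
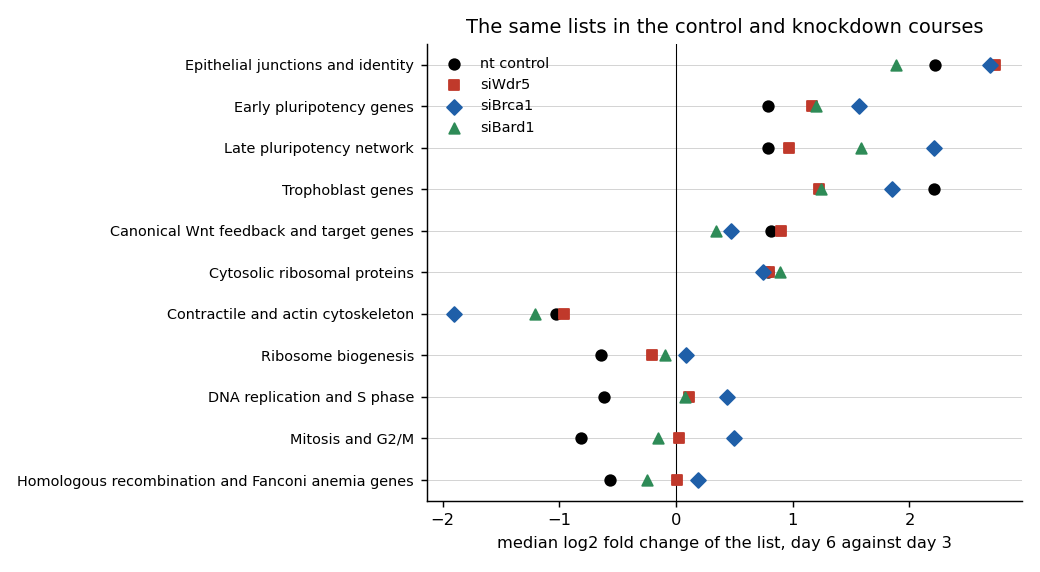
Median log2 fold change from day 3 to day 6 of 11 gene lists in the nt control (black circles) and in siWdr5 (red squares), siBrca1 (blue diamonds) and siBard1 (green triangles) cells. Epithelial and ribosomal protein genes are higher and contractile genes lower at day 6 in all 4 courses, whereas mitosis and replication genes have medians of −0.81 and −0.62 in the control and of −0.16 to 0.50 in the knockdowns.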

How the data were processed

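RNA was sequenced from 16 cultures, and the authors deposited 1 table of log2 CPM (read counts scaled to library size) per gene, with 1 column per library and no column of comparisons. The authors used STAR 2.5.2b, edgeR 3.20.9 and build mm10, as named in the submitters' processing notes. The counting tool and annotation are not given in the sources used here. The deposited log2 values include a prior count, so that 0 reads stand at 0.136 CPM, and CPM were computed back from them. In each library all values of up to 10000 reads were whole multiples of 1 read to within 0.01 read, which gave the read numbers. Total reads per library were 11169738 to 26832534.

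Groups were taken from the labels. The 14028 of 18990 genes whose log2 CPM averaged 0 or more over the series were fitted with limma 3.58.1 in R 4.3.3 (1 mean per group, trend on mean expression, two-sided, Benjamini-Hochberg adjustment over all genes tested), which was tested on simulated data. Limma on the deposited log2 CPM was the main test, and limma-voom on the recovered read numbers was an alternative. Promoters were matched by symbol and gene lengths by Ensembl gene identifier. The members and lists were chosen with earlier results of these data known. Named genes were fixed markers, the 15 largest rises and falls and the 5 largest differences of course in each direction among genes averaging 2 or more on the log2 CPM scale (clone names left out), up to 4 members of each list in each direction and any member of lists of at most 14. Some of these genes are not reported here. Alternatives were filters, scalings, pseudocounts, limma-voom, the replicate block and leaving out each nt library.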

Additional observations from a re-analysis of the deposited data

Results flagged for a closer look

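Results are given here because the change from day 3 to day 6 in the control differed from the mean change in the 3 knockdowns by more than 1 on the log2 scale, with an adjusted p below 0.05 in limma's test of the difference. Each of the 29 values kept its sign without any 1 of the 4 control libraries, but 0 passed without D3a, 2 without D3b, 5 without D6a and 20 without D6b.

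Genes of cell division had a more negative course in the control, with a difference of −1.24 for *Plk1*, −1.10 for *Mki67*, −1.05 for *Ncapd2* and −1.03 for *Foxm1*. The difference was −1.05 for *Bard1* and −1.02 for *Brca1*, and the mean knockdown course includes the cells in which these genes were themselves silenced. Of the pluripotency genes named, the course in the control was more negative by −1.79 for *Nr5a2*, −1.45 for *Tdh* and −1.24 for *Sall4*. In the late network list, 6 genes passed as more negative and 3 as more positive, and in the early list 4 and 0. The course in the control was more positive by 2.22 for *Fabp4*, 2.01 for *Fabp3*, 1.95 for *Pdk4*, 1.86 for *Slc16a3* and 1.41 for *Plin2*. Among called genes averaging 2 or more on the log2 CPM scale, clone names left out, the largest differences in each direction were −2.93 for *Penk* and 2.44 for *Trpv2*.

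Among the other named genes, the course in the control was more negative by −1.48 for *Gprin3*, −1.41 for *Frmd3*, −1.38 for *Adamts20*, −1.25 for *Has2*, −1.06 for *Fgfr3* and −1.01 for *Lama1*. It was more positive by 1.02 for *Tex15*, 1.08 for *Spp1*, 1.13 for *Peg10*, 1.21 for *Ccl8*, 1.35 for *Col25a1*, 1.48 for *Gata3* and 1.65 for *Cd53*. The part of the 2 day 3 control libraries in these differences was tested only by leaving each out.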

How the results depend on the processing

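Of 168 named genes that passed between day 3 and day 6, 159 kept their direction and passed in every setting that fitted them. The values of *Pou5f1* turned to 0.13 under quantile normalization and ranged from −0.18 to 0.053 when 1 library was left out (positive without D3b, 0.021, and D6a, 0.053), that of *Zeb2* to 0.087 under quantile normalization, that of *Twist1* to −0.22 without D6a (0.56 without D6b), that of *Trp63* to −0.11 without D6b (0.75 without D6a), and that of *Csf1r* to 0.12 without D3b and 0.35 without D6b (−0.45 without D6a), none of which had passed. *Wdr5* did not pass under quantile normalization (adjusted p = 0.165). The 1659 called genes became 1021 with a filter of 2 in place of 0 on the mean log2 CPM (585 higher), where fewer genes were tested, 1769 were higher with no filter, and 6474 passed by adjusted p alone (2667 higher, 3807 lower). Leaving out 1 control library gave 1440 to 1776 called genes, 915 to 1142 higher and 489 to 634 lower. It left 31 to 33 contractile, 41 to 55 ribosomal protein, 28 to 29 epithelial, 26 to 31 mitosis, 10 to 11 early and 9 to 10 late pluripotency genes. With the filter of 2, 6 early and 5 late pluripotency and 15 epithelial genes rose.

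For the difference of courses (366 called, 213 higher and 153 lower), leaving out 1 control library gave 6 to 307 called genes, 6 to 172 higher and 0 to 135 lower. With no lower gene called without D3a, 2990 genes of either direction had an unadjusted p below 0.05. Centring on the median gene gave 82 lower, the stricter filter 126 higher, no trend 99 lower, 1 CPM added 236 called and 130 higher, and adjusted p alone 1916 (634 higher, 1282 lower). The cause was not tested.

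The labels do not say whether libraries with the same replicate number share an experiment, and the main fit did not pair them. The deviations of same-numbered libraries correlated by 0.014 between nt day 3 and day 6, and by −0.0931 to 0.372 over 28 pairs of groups, 9 of them above 0.1. With the replicate block the called genes numbered 1688 in all 16 libraries and 1711 in the 4 nt libraries, and the differences of course 410. Depth limits genes near the floor of 3 reads.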
